A study of Mus musculus with 6 samples.

Results

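The genes described here encode proteins that form, hold or restrain the enzymes of fibrin turnover. They were taken by symbol: the plasminogen activators Plau and Plat, the receptor Plaur, the plasminogen receptors Anxa2, S100a10 and Plgrkt, the inhibitor Serpinb2, and the clotting genes F10 and F3. All 9 matched 1 row each of the 56691 genes in the deposited table. The libraries came from wild-type cells of a mouse macrophage line, written RAW246.7 in the labels, that had been pretreated with LPS (bacterial lipopolysaccharide, which activates macrophages). After that the cells were kept for 24 h on MSA-ZW or on MSA-DA hydrogels, with 3 libraries per gel. LPS pretreatment was shared by both groups, and none of the 6 libraries was without LPS or without a gel. The series title concerns fibrin networks formed by hydrogels of differing protein absorption, so the comparison asks whether genes of fibrin turnover differed between macrophages on these gels. Differences are MSA-DA relative to MSA-ZW throughout.

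As background, fibrin clots are dissolved by plasmin, which is cut from plasminogen by urokinase (Plau) or tissue plasminogen activator (Plat). Urokinase acts at the cell surface when bound to its receptor Plaur, and plasminogen is held nearby by receptors such as the annexin A2 and S100A10 complex and Plgrkt. Serpins such as Serpinb2 block both activators. Clotting starts when tissue factor (F3) meets factor VII and activates factor X (F10), and activated macrophages are known sources of urokinase and of tissue factor.

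Count totals ranged from 14374912 to 18346615 per library. Separate cultures are not recorded for the replicates, so the p-values may reflect technical spread only. All 8 macrophage markers were detected, and their summed level was 2368 to 2401 FPKM (read counts scaled to exonic length and to the library's total) on MSA-DA and 2761 to 2814 FPKM on MSA-ZW. Among them Lyz2, Csf1r and Spi1 were called lower and the other 5 were not called. Lyz2 alone, the most abundant, stood at 1339 ± 17.6 against 1743 ± 22.3 FPKM (SD, n = 3), while the other 5 lay above 0 in log2 difference and the median of the list was 0.04. Markers of fibroblasts, endothelium, platelets, hepatocytes and neutrophils summed to at most 0.42 FPKM per list in any library. The ribosomal RNA locus Rn18s-rs5 took 0.132% to 0.141% of counts on MSA-DA and 0.238% to 0.449% on MSA-ZW, with the highest share in MSA-ZW replicate 2. What part these shifts played in the differences below was not tested.

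Macrophages on both gels carried much urokinase and annexin A2 complex RNA, moderate levels of Plaur and Plgrkt RNA, and almost none of Plat, Serpinb2, F10 and F3. On MSA-DA the RNAs of urokinase and its receptor fell by 7.79% and fell by 21.6%, respectively, while those of the 3 plasminogen receptors did not pass the test. In bulk RNA such as this, fewer cells expressing a gene and less RNA per cell cannot be told apart. Of the 9 members 6 had enough reads to be tested, and 2 were lower and 0 higher at an adjusted p below 0.05 (edgeR quasi-likelihood test). Over all 12467 tested genes, 13.4% were called, with 6.5% lower and 6.92% higher. The median log2 difference was 0.05 over the 6 tested members and 0.00 over all tested genes.

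**Figure D1:**
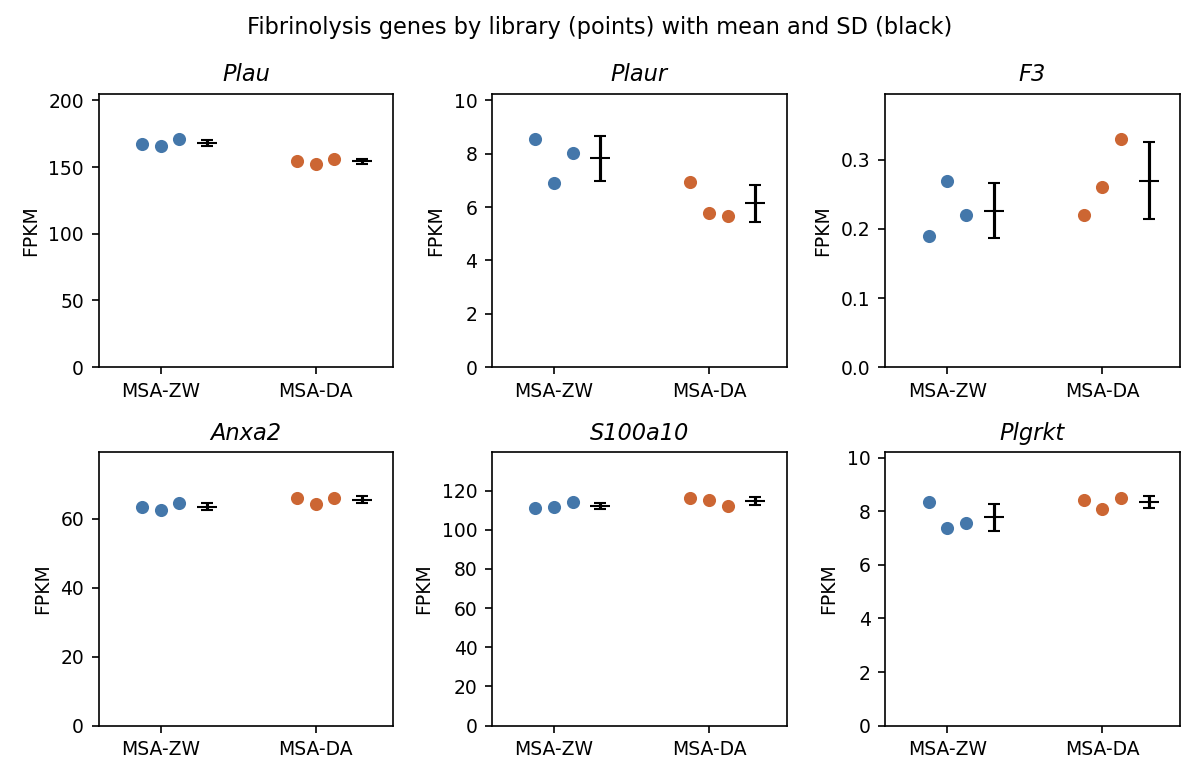
FPKM (vertical axes, from 0) of the 6 tested members in each library (points), with the mean and SD of each gel in black. The MSA-DA points lie below the MSA-ZW points for Plau, the groups touch for Plaur, and the 3 plasminogen receptors and F3 were not called.

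Plau, the urokinase gene (ENSMUSG00000021822, chromosome 14, 20886728 to 20893453, plus strand, GRCm39), was the most abundant member, with 98.1% of tested genes below its mean FPKM, against 52.0% for Plaur and 55.7% for Plgrkt. It stood at 155, 152 and 156 FPKM in MSA-DA replicates 1, 2 and 3, and at 167, 166 and 171 FPKM in MSA-ZW replicates 1, 2 and 3. Every MSA-DA library lay below every MSA-ZW library, as was the case in that direction for 13.7% of tested genes. The means were 154 ± 2.05 FPKM for MSA-DA and 168 ± 2.53 FPKM for MSA-ZW (SD, n = 3). The log2 difference came to -0.12 (SE 0.03, edgeR adjusted p = 0.00271), which is 1.08-fold lower. The call held in all 14 alternative fits, with adjusted p between 0.000382 and 0.0341. Plat, the other activator gene (ENSMUSG00000031538, chromosome 8, 23247743 to 23272860), had 1 read in the 6 libraries, in MSA-ZW replicate 1. No difference in Plat was detectable at this depth. The 95% exact Poisson interval for its 0 reads among 48533766 on MSA-DA reached up to 3.69.

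Plaur, which encodes the surface anchor of urokinase (ENSMUSG00000046223, chromosome 7, 24161909 to 24175393, plus strand, GRCm39), had the largest difference among the tested members that were called. It stood at 6.94, 5.79 and 5.68 FPKM on MSA-DA and at 8.55, 6.90 and 8.04 FPKM on MSA-ZW. MSA-DA replicate 1 and MSA-ZW replicate 2 met, so the groups overlapped slightly. The means were 6.14 ± 0.698 FPKM and 7.83 ± 0.845 FPKM (SD, n = 3), and the log2 difference came to -0.35 (SE 0.09, edgeR adjusted p = 0.00844), which is 1.28-fold lower. Without MSA-DA replicate 2, MSA-DA replicate 3 or MSA-ZW replicate 1 the log2 difference was -0.31, -0.31 and -0.29 and the edgeR adjusted p 0.0665, 0.0588 and 0.0618. Those fits called 1001, 1065 and 1403 genes in all, against 1673 with all 6 libraries. With limma on log2(FPKM + 1) the difference was -0.31 and the adjusted p 0.0823. Per length, Plau RNA exceeded that of Plaur by 22.3, 26.2 and 27.5 times on MSA-DA and by 19.5, 24.1 and 21.3 times on MSA-ZW. These ratios overlapped, and their difference did not pass (two-sided exact permutation test, p = 0.2, where 0.1 is the smallest possible for 3 libraries against 3).

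RefSeq promoter windows (build GRCm38.p6, not the GRCm39 of the table) were at hand for 6 of the 9 members, Plaur, Serpinb2, Anxa2, Plgrkt, F10 and F3. The 250 bases before the start were searched for the AP-1 motif TGANTCA, which reads the same on both strands and is bound by Fos and Jun proteins. It was present in 4 of the 6 (Plaur, Anxa2, F3 and Serpinb2) and in 6.75% of all 32851 windows of that length. The 6 members had 7 windows, and a member counted where any of its windows matched. The 6.75% is a share of windows, not of genes. The windows of Plaur, Anxa2 and F3 are shown because they set a receptor that fell beside an abundant receptor that was not called and a clotting gene that was nearly silent. Capitals mark the motif, which begins 69 bases before the start in Plaur, 95 in Anxa2, and 146 and 135 in F3. A match in letters is not a measured binding site. The windows are chr7:24462233-24462482 for Plaur, chr9:69453433-69453682 for Anxa2 and chr3:121723287-121723536 for F3, all on the plus strand.
Plaur: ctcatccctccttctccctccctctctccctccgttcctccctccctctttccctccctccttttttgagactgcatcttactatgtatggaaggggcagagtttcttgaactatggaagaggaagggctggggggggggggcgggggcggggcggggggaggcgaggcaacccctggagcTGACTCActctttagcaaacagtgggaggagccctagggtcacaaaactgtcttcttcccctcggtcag
Anxa2: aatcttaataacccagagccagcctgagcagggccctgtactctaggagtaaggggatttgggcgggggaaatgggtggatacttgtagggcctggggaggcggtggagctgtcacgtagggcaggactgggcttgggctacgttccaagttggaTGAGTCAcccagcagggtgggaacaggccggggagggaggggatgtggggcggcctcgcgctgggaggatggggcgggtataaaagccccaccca
F3: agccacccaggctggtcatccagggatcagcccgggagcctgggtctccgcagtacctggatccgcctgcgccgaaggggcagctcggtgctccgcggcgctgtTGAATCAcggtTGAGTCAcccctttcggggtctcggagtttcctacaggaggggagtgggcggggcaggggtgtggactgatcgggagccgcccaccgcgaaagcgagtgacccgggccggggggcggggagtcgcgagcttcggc
The Anxa2 window also held TATAAA (searched on both strands, present in 12.4% of all windows), which those of Plaur and F3 did not. All 3 windows held GGGCGG (both strands), as did 32.7% of all windows.

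The plasminogen receptors were not called. Anxa2, which binds plasminogen and tissue plasminogen activator (ENSMUSG00000032231, chromosome 9, 69360902 to 69399077, GRCm39), stood at 66.1, 64.4 and 66.1 FPKM on MSA-DA and at 63.4, 62.5 and 64.6 FPKM on MSA-ZW. Its groups did not overlap when libraries were scaled by TMM (28.4% of tested genes did not in either direction, and 14.7% lay higher on MSA-DA), although the FPKM of MSA-DA replicate 2 lay under that of MSA-ZW replicate 3. The log2 difference of 0.05, with a standard error of 0.03, did not pass (edgeR adjusted p = 0.273, and 0.152 to 0.555 over the alternatives). S100a10, whose product pairs with annexin A2 and carries the plasminogen-binding end of the complex (ENSMUSG00000041959, chromosome 3, 93462387 to 93471950), stood at 116, 115 and 112 FPKM on MSA-DA and at 111, 112 and 114 FPKM on MSA-ZW. The groups overlapped, and the log2 difference came to 0.04 (SE 0.03, edgeR adjusted p = 0.534). The ratio of Anxa2 to S100a10 RNA per length was 0.572 ± 0.0158 for MSA-DA and 0.566 ± 0.00585 for MSA-ZW (SD, n = 3, two-sided exact permutation p = 0.7), and the libraries of both gels overlapped. Plgrkt, a transmembrane plasminogen receptor (ENSMUSG00000016495, chromosome 19, 29325999 to 29344790), stood at 8.41, 8.08 and 8.51 FPKM on MSA-DA and at 8.36, 7.39 and 7.57 FPKM on MSA-ZW. MSA-ZW replicate 1 lay within the MSA-DA range, and the log2 difference came to 0.11 (SE 0.07, edgeR adjusted p = 0.333).

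**Figure D2:**
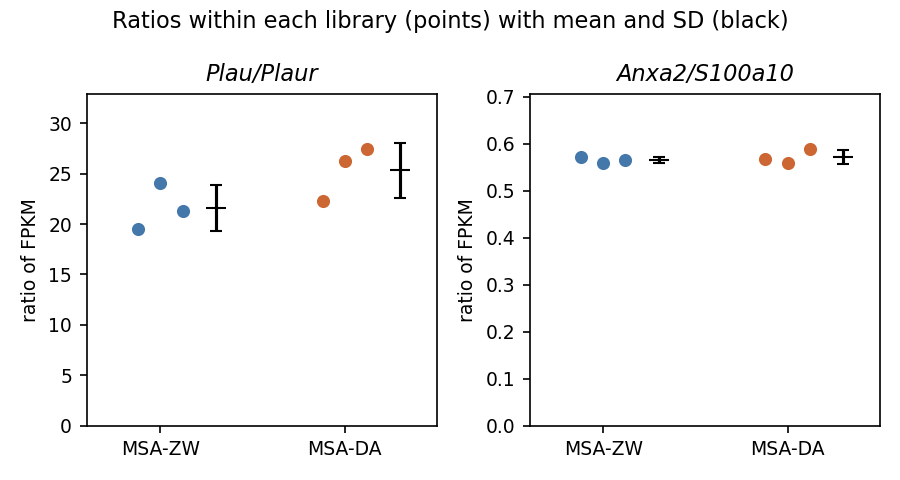
Ratio of FPKM values within each library (vertical axes, from 0; points) for Plau over Plaur and for Anxa2 over S100a10, with mean and SD of each gel in black. The libraries of the 2 gels overlap in both ratios.

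The other genes that hold plasminogen or clear activator complexes were given as a list of 8, of which 5 were tested. Of these 2 fell, 0 rose and 3 did not pass, and the list's median log2 difference was 0.03. Among all tested genes 6.5% were called lower and 6.92% higher. Lrp1, the receptor that internalises urokinase bound to its inhibitor, stood at 43.7, 41.8 and 40.6 FPKM on MSA-DA and at 50.9, 48.7 and 43.9 FPKM on MSA-ZW. Its log2 difference came to -0.18 (SE 0.03, edgeR adjusted p = 0.000231). Eno1, a glycolytic enzyme that also binds plasminogen at the surface, was 1.06-fold lower, at 272 ± 5.33 against 289 ± 9.19 FPKM (SD, n = 3, edgeR adjusted p = 0.0127). The retrogene copy Eno1b is counted as a gene of its own, so reads of this pair may be split. With GC content and length corrected for, neither gene passed, with log2 differences of -0.07 for Lrp1 and -0.01 for Eno1 (edgeR adjusted p of 0.094 and 0.858). Lrp1 also missed the threshold with DESeq2 (adjusted p = 0.0558), and Eno1 missed it in edgeR at 0.0722 without MSA-DA replicate 2 and at 0.0831 without MSA-DA replicate 3. With limma on log2(FPKM + 1) neither passed (adjusted p of 0.0856 for Lrp1 and 0.0936 for Eno1). In all, the call was lost in 5 of 14 alternatives for Lrp1 and in 6 of 14 for Eno1. Hmgb1, which can bind plasminogen, was not called at 27.9 ± 1.17 against 27.3 ± 1.01 FPKM. Plg itself, the plasminogen gene, had no read in any library.

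On the inhibitor side, Serpinb2, the member that blocks urokinase (ENSMUSG00000062345, chromosome 1, 107439153 to 107463208), had too few reads to be tested. It had 3, 3 and 1 reads in MSA-DA replicates 1, 2 and 3 and 0 in every MSA-ZW library. The 95% exact Poisson interval was 2.81 to 14.4 for the 7 reads on MSA-DA and 0 to 3.69 for the 0 reads on MSA-ZW. These intervals overlapped, but such an overlap does not test for a difference. The two-sided exact permutation test over libraries gave p = 0.1, the smallest possible, so it could not decide the question. In edgeR without a filter on low counts the unadjusted p was 0.02, and Serpinb2 was not called (adjusted p = 0.187). Whether Serpinb2 differed between the gels was left undecided at this depth. Its level was at most 0.09 FPKM. Serpinb10, which overlaps it on the same strand, had no read. Of the 8 other inhibitors described here, 1 had enough reads to be tested. This gene, Serpini1 (neuroserpin), stood at 0.45, 0.44 and 0.49 FPKM on MSA-DA and at 0.50, 0.58 and 0.55 FPKM on MSA-ZW. It was not called at 0.46 ± 0.0265 against 0.543 ± 0.0404 FPKM (SD, n = 3, edgeR adjusted p = 0.445). The antiplasmin gene Serpinf2 had 6 reads on each gel, and Serpine2, Serpina5, Cpb2 and Pzp had none.

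**Figure D3:**
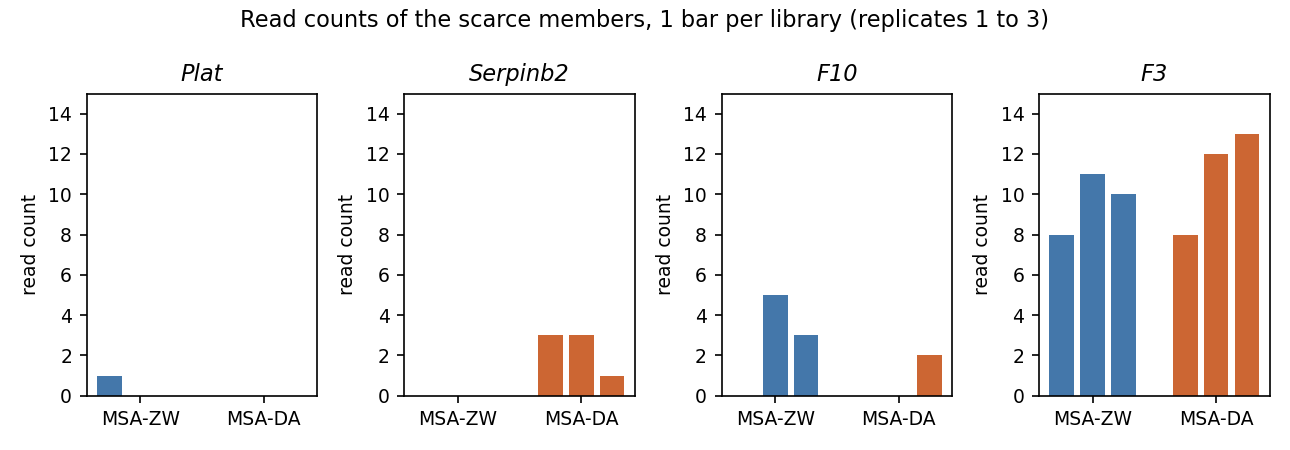
Read counts (vertical axis) of the 4 scarce members, with 1 bar per library and replicates 1 to 3 from left to right within each gel. Plat has 1 read in all, Serpinb2 has reads on MSA-DA and none on MSA-ZW, and F10 and F3 overlap between gels.

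The clotting members were close to silent. F3, the tissue factor gene that starts clotting (ENSMUSG00000028128, chromosome 3, 121517186 to 121528697), had 8, 12 and 13 reads on MSA-DA and 8, 11 and 10 on MSA-ZW. The groups overlapped, and the log2 difference of 0.26 had a standard error of 0.42 (edgeR adjusted p = 0.762), so a moderate change in either direction could not be detected at this depth. F10, the factor X gene (ENSMUSG00000031444, chromosome 8, 13087308 to 13106676), had 0, 0 and 2 reads on MSA-DA and 0, 5 and 3 on MSA-ZW. Per total count that is a ratio of 0.263 (exact 95% Poisson interval 0.0272 to 1.32, counting error only), and the two-sided exact permutation test gave p = 0.4. These values are at the limit of detection and overlap.

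Of the 21 other clotting genes listed, 6 were tested, of which 3 fell, 0 rose and 3 did not pass (median log2 difference -0.10). The shares over all tested genes were 6.5% called lower and 6.92% called higher. None of the 3 that fell encodes a soluble clotting protease. Tgm2, a transglutaminase that can crosslink fibrin, stood at 6.23, 5.67 and 6.09 FPKM on MSA-DA and at 23.4, 21.8 and 22.3 FPKM on MSA-ZW, 3.74-fold lower. Mcfd2, part of the cargo receptor that exports factors V and VIII from the endoplasmic reticulum, was 1.13-fold lower at 19.3 ± 0.716 against 21.8 ± 0.555 FPKM (SD, n = 3, edgeR adjusted p = 0.0118). Without MSA-DA replicate 2 its log2 difference was -0.16 against -0.17 (edgeR adjusted p = 0.0768), and with DESeq2 it was -0.18 (adjusted p = 0.0562). Lman1, its partner in that receptor, was not called at 27.1 ± 0.361 against 26.9 ± 0.448 FPKM. Vkorc1, which recycles vitamin K for the carboxylation of clotting factors, stood at 7.12, 4.80 and 5.04 FPKM on MSA-DA and at 8.01, 7.14 and 8.38 FPKM on MSA-ZW (log2 difference -0.48, edgeR adjusted p = 0.0295). Without MSA-DA replicate 2, MSA-DA replicate 3, MSA-ZW replicate 1 or MSA-ZW replicate 3 the difference was -0.37, -0.42, -0.47 and -0.43 and was not called (edgeR adjusted p of 0.199, 0.134, 0.0697 and 0.08). With GC content and length corrected for it was -0.45 and just missed the threshold (edgeR adjusted p = 0.0512). With limma it was not called on log2(FPKM + 1) or log2(FPKM + 0.1) (adjusted p of 0.083 and 0.0853). In all, the call of Vkorc1 was lost in 7 of the 13 alternatives that gave an adjusted p, which DESeq2 did not. The fibrinogen chain genes Fga and Fgg had no read and Fgb had 1.

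On the list of anticoagulant proteins 5 of 11 were tested, and 2 rose, 0 fell and 3 did not pass, with a median log2 difference of 0.10. Over all tested genes 13.4% were called and 6.92% were called higher. So few tested genes give no direction for the list. Gas6, a vitamin K-dependent ligand of TAM receptors related to protein S and not itself an established anticoagulant, stood at 3.82, 4.54 and 4.49 FPKM on MSA-DA and at 3.12, 3.43 and 3.28 FPKM on MSA-ZW. It was 1.32-fold higher (edgeR adjusted p = 0.0115), but 0.0884 without MSA-DA replicate 2 and 0.0642 without MSA-DA replicate 3. Anxa5, which covers phosphatidylserine and so shields it from clotting factors, was 1.07-fold higher at 553 ± 5.38 against 519 ± 11.5 FPKM (SD, n = 3, edgeR adjusted p = 0.00291). Procr, the protein C receptor, was not called at 15.8 ± 0.596 against 14.8 ± 0.678 FPKM. All 4 protease-activated receptor genes had no read in any library.

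Integrins that bind fibrinogen or pair with Plaur moved in both directions, with 1 higher, 1 lower and 2 not called of 4 tested (median log2 difference -0.12). The share called over all tested genes was 13.4%. Itgam, the alpha chain of the fibrinogen receptor Mac-1, was 1.15-fold higher at 27.4 ± 1.22 against 23.9 ± 0.266 FPKM (SD, n = 3, edgeR adjusted p = 9.23e-05). Itgb2, its beta chain, was not called at 269 ± 1.67 against 270 ± 3.55 FPKM. Itgav, the alpha chain of the vitronectin receptor, was 1.19-fold lower at 9.70 ± 0.376 against 11.6 ± 0.65 FPKM (SD, n = 3, edgeR adjusted p = 2.89e-05). Itgb3, a beta chain of that receptor, had 14 reads on MSA-DA and 37 on MSA-ZW and was not tested. By replicate these were 3, 7 and 4 reads on MSA-DA and 12, 15 and 10 on MSA-ZW. The groups did not overlap, as was the case in that direction for 13.7% of tested genes.

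**Figure D4:**
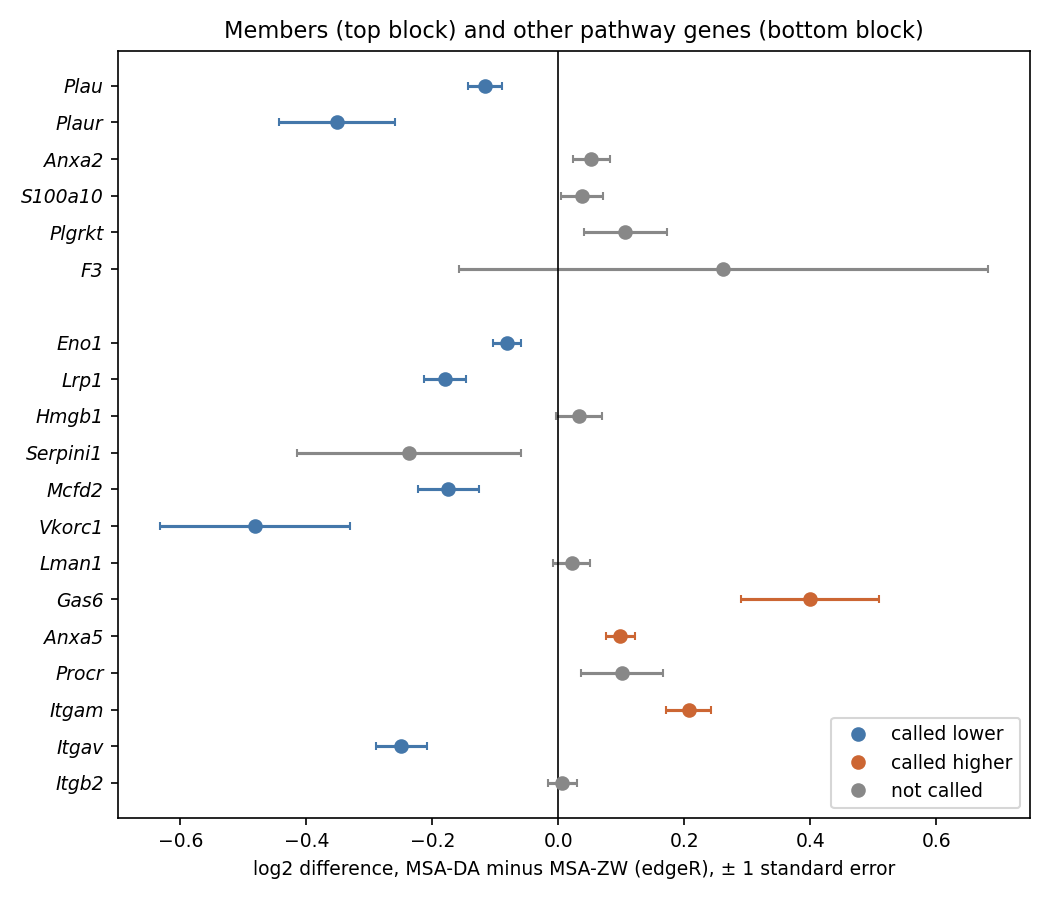
Log2 difference of MSA-DA minus MSA-ZW (horizontal axis; edgeR) with 1 standard error to each side, for the 6 tested members in the top block and for other named pathway genes below, coloured by call. Tgm2, at -1.90, lies outside the range shown and is left out. Plau and Plaur lie below 0, and the plasminogen receptors lie just above it without a call.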

How the data were processed

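RNA sequencing of 6 libraries, 3 per gel, was analysed. Tools named in the submitters' processing notes are HISAT2 2.2.1, cutadapt 1.9.1 and bcl2fastq 2.20.0.422, with build GRCm39. The read counting tool, strand setting and annotation were not given in the sources used here. As the file headers show, the authors deposited whole-number raw counts and FPKM per gene. The deposited FPKM equal counts per exonic length and library total to within 0.005.

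Counts were tested with edgeR 4.0.16 in R 4.3.3 (TMM, filterByExpr, quasi-likelihood test, group as the only term, Benjamini-Hochberg adjustment over 12467 genes, threshold 0.05). Standard errors are the log2 difference divided by the square root of F. Levels and within-library ratios use FPKM, and a ratio needed at least 10 counts in the lower gene of every library, which left out ratios over Serpinb2. No set test was run. Groups came from the titles.

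The members, gene lists and rule for named genes were chosen with earlier results of these data known. The rule took all 9 members and, per list, the called genes (at most 5) and the most abundant gene not called. Alternatives were DESeq2 1.42.0, RLE factors, no filter, limma 3.58.1 on log2(FPKM + 1) and log2(FPKM + 0.1) where 3 libraries reached an FPKM of 1, a replicate block, a correction for GC content and length, and leaving out each library. GC content came from the longest GENCODE transcript, matched by gene identifier for 98.9% of tested genes. Leaving out libraries for the ratios was added after seeing the data.

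On simulated data for this comparison (12467 genes, 50 changed per fold) edgeR recovered 14% of changes of 1.1-fold, 62% at 1.3-fold, 78% at 1.5-fold and 96% at 2-fold. It also called 13 genes that had not been changed. DESeq2 called 2 such genes and recovered fewer changes at each fold. Intervals cover counting error only. Overlapping or near-identical genes may share reads. The result for 1 listed gene is left out.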

Additional observations from a re-analysis of the deposited data

How the results depend on the processing

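The call of Plau and the directions of the 6 tested members held in every alternative fit that gave a value. F3 had no value with limma, whose filter removed it, and no adjusted p with DESeq2. Plaur kept its direction in all 14, but was not called by limma on log2(FPKM + 1) (log2 difference -0.31) or log2(FPKM + 0.1) (-0.35). Leaving out each library gave -0.45 to -0.29 for Plaur, with the losses named above, so 1 member was called in those limma fits and in 3 of the fits without a library (range 1 to 2). Over all genes, 949 were called with DESeq2, 906 with limma on log2(FPKM + 1), 895 on log2(FPKM + 0.1) and 1001 to 1654 without a library, against 1673 in the reported fit. In the other pathway lists together 11 genes were called, 6 with DESeq2 and 6 to 10 without a library (6 without MSA-DA replicate 2 and 7 without MSA-DA replicate 3). The number tested is given with each list, and over all tested genes 13.4% were called. Since the lists were chosen with earlier results of these data known, their count cannot be read against that share.

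Same-numbered libraries did not visibly deviate together (correlations across genes of 0.0082, 0.0091 and -0.0053). Differently numbered libraries gave -0.0354 to 0.0261. These values cannot show whether same-numbered libraries were prepared together, which the labels do not state. With a replicate block 1594 genes were called, Plau and Plaur among them (log2 differences -0.12 and -0.34), and S100a6 lost its call (edgeR adjusted p = 0.0539). Depth limited F3, F10, Plat and Serpinb2.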

Other observations

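Of 11 other annexin and S100 genes, all tested, 2 rose, 0 fell and 9 did not pass, with a median log2 difference of -0.02. Over all tested genes 13.4% were called. S100a4, a motility-associated relative of S100a10, was 1.15-fold higher at 557 ± 3.66 against 487 ± 20.3 FPKM (SD, n = 3, edgeR adjusted p = 8.31e-06). S100a6 was 1.08-fold higher (edgeR adjusted p = 0.0449), a call that was lost in 10 of 14 alternatives. S100a11, whose gene lies near S100a10 on chromosome 3, was not called at 138 ± 1.18 against 147 ± 2.56 FPKM (edgeR adjusted p = 0.24). Among 8 other clade B serpins, relatives of Serpinb2, 5 were tested and 0 were called by edgeR, with 0 at an unadjusted p below 0.05. DESeq2, which tested 4 of them, and limma on log2(FPKM + 1) also called 0. The most abundant of them, the granzyme inhibitor Serpinb9, stood at 41.9 ± 1.64 against 43.6 ± 1.82 FPKM.

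The genes whose pattern over the 6 libraries lay nearest to that of Plaur, among 8621 genes of at least 10 CPM (counts scaled to library size), were Card6, Thap7 and Tab1. Their root-mean-square distances from Plaur, in centred log2 CPM, were 0.0740, 0.0792 and 0.0820. Their own log2 differences were -0.27, -0.25 and -0.23, and edgeR called Card6 and Thap7 (adjusted p of 0.0486 and 0.0223) but not Tab1 (0.155). Differences in the direction of Plaur follow from the selection, which used the same 6 libraries, and are no separate result.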
